A study of Mus musculus with 12 samples.

Results

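The translation initiation factor genes of mouse bone marrow cells were described over 12 Illumina expression arrays, 3 for each of 4 groups. Members were the probes whose gene symbol in the platform annotation begins with Eif1, Eif2, Eif3, Eif4, Eif5 or Eif6, kinases (Eif2ak) and eIF4E-binding proteins (Eif4ebp) included. This gave 90 of the 45281 probes on the array, which stand for 50 genes under current symbols, 26 of them with more than 1 probe. Of the 90 probes, 74 lay above background (detection p under 0.05) on at least 3 of the 12 arrays, and 44 of the 50 genes were tested among 11472 genes in all. The genes of eIF2α (Eif2s1), eIF4G1 (Eif4g1), eIF4G3 (Eif4g3) and eIF1 itself have no probe under this rule and were not analysed here.

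All cells came from the bone marrow of 3-month-old β-globin/GFP transgenic mice, which carry a thalassaemia-type splicing mutation in a β-globin intron placed inside GFP. The SCF group held CD117+ cells given 3 µg/ml stem cell factor for 48 h. The U group was also labelled CD117+, and no label says what the letter U stands for or names a treatment. The C group held CD117+ cells and the A group CD117− cells. CD117 is the receptor c-Kit, SCF is its ligand, and the fractions were made by magnetic enrichment, so the CD117+ groups are enriched rather than pure. By the methods, each replicate of the CD117+ and CD117− cells is a separate mouse. That statement names neither the SCF treatment nor the U group, and if it does not cover them their p-values may measure technical spread only. The methods describe CD117+ cells grown with insulin, serum and erythropoietin, without saying whether the C cells had been in culture.

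Initiation brings a ribosome to the start codon of an mRNA. The eIF2 complex carries the initiator tRNA to the small ribosomal subunit, eIF2B recharges eIF2 with GTP, and stress-activated kinases (the Eif2ak genes) phosphorylate eIF2 and thereby block eIF2B. The many-subunit eIF3 scaffold holds the small subunit, eIF4F (the cap-binding eIF4E, the helicase eIF4A and the scaffold eIF4G) recruits the mRNA, and 4E-BPs sequester eIF4E until they are phosphorylated. Growth factor receptors such as c-Kit are known to act on this step mainly through phosphorylation, which RNA arrays do not measure.

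The 4 groups differed in much besides these genes. Probes above background numbered 17866 to 18027 on the SCF arrays, 17786 to 18081 on the U arrays, 17719 to 18248 on the C arrays and 16210 to 17394 on the A arrays. Kit itself had log2 intensities of 10.61 to 10.74 in SCF, 10.06 to 10.39 in U, 11.39 to 11.57 in C and 8.94 to 9.58 in A. Of 7 stem and progenitor markers, 6 were higher in C than in A. Of 10 mature neutrophil markers, 9 were lower in C than in A and all 10 were higher in U than in C, with summed log2 levels of 14.93 to 15.10 in SCF, 15.08 to 15.19 in U, 10.78 to 11.65 in C and 16.74 to 16.89 in A. The authors' processed intensities follow 1 distribution over the C and A arrays and another over the SCF and U arrays, so a difference between U and C or between SCF and C cannot be told apart from a difference between array sets.

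**Figure D1:**
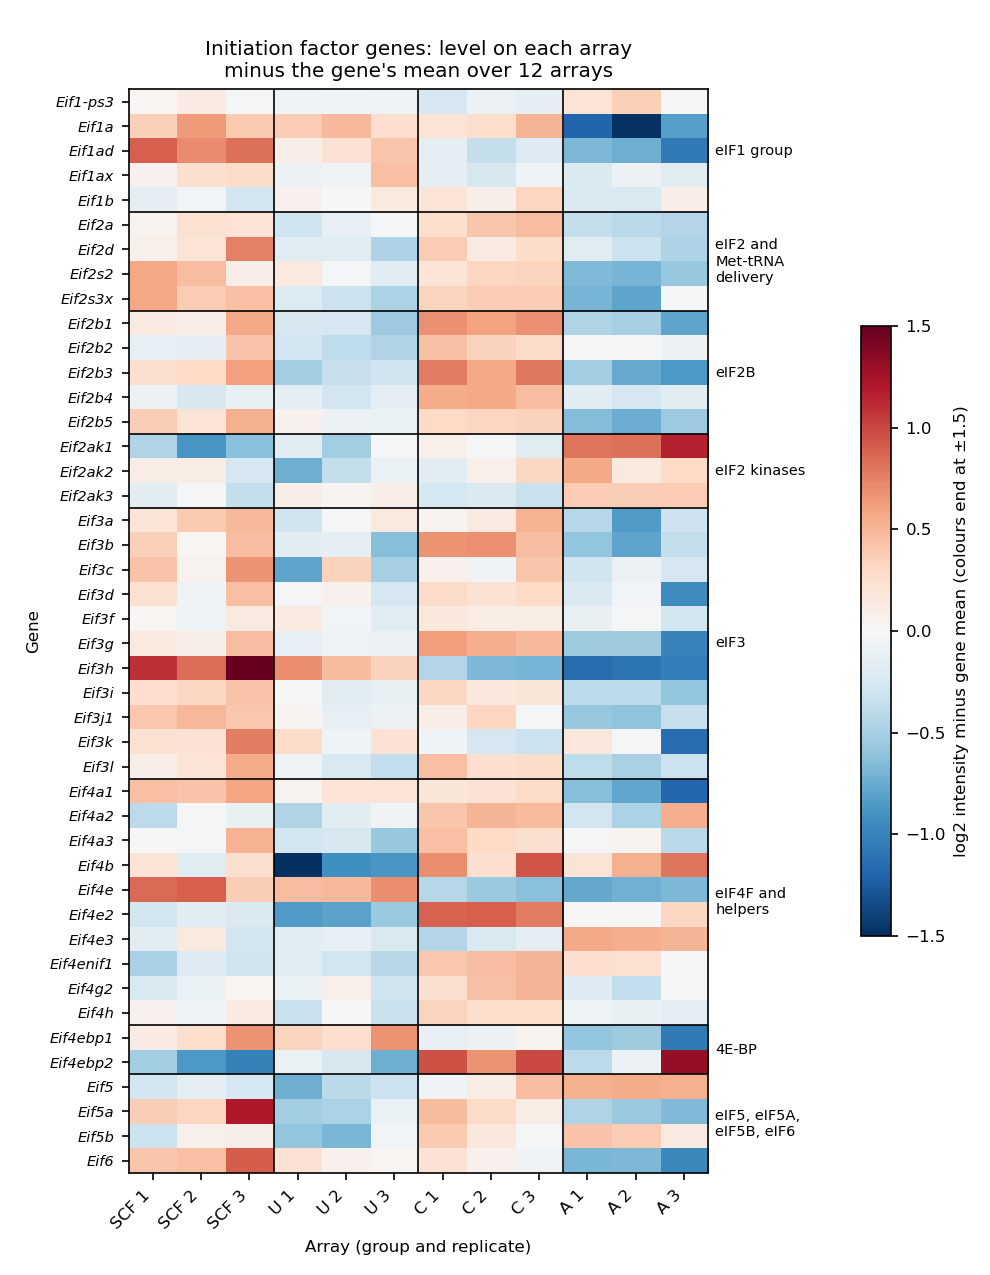
Each row is 1 of the 44 tested genes, ordered by factor complex, and each column 1 of the 12 arrays in the groups SCF, U, C and A. Colour gives the log2 intensity minus the gene's mean over the 12 arrays, red above and blue below. The eIF2, eIF2B and eIF3 rows are mostly red in SCF and C and blue in U and A, while the kinases Eif2ak1 and Eif2ak3 are reddest in A.

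Across the family, the CD117− A group was most often at the bottom of the order. Of the 44 tested genes, the group mean was highest in SCF for 17, in U for 1, in C for 19 and in A for 7. The lowest mean was in SCF for 4 genes, in U for 10, in C for 3 and in A for 27. In the differences below, a gene is called higher or lower at an adjusted p under 0.05 in limma's moderated test over all 11472 genes, and the fold change is a log2 difference of group means, first group minus second.

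The first comparison was of SCF-treated with U cells, which share an array set. Initiation factor genes were higher in SCF far more often than lower: 20 of 44 members were called (27.8% of all tested genes were), all 20 of them higher, where 14.1% of all tested genes were, and 0 lower, where 13.7% of all tested genes were. At an unadjusted p under 0.05 the counts were 25 higher and 1 lower, where 4374 of all 11472 tested genes passed in either direction. The median member differed by 0.36 on the log2 scale, against 0.02 over all genes. Every SCF array lay above every U array for 23 members and below for 2. That count was not made over all genes, so it has no share to be read against. In bulk RNA such a difference cannot tell fewer cells of a type from less RNA per cell.

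Most of the genes called belong to the eIF2, eIF2B and eIF3 complexes. Of the eIF2 and initiator tRNA delivery genes, 3 of 4 were higher in SCF (Eif2s2, Eif2s3x, Eif2d). The same held for 4 of 5 eIF2B subunits (Eif2b1, Eif2b2, Eif2b3, Eif2b5) and for 6 of 11 eIF3 subunits (Eif3b, Eif3c, Eif3h, Eif3i, Eif3j1, Eif3l). Of the eIF4F genes and helpers, 4 of 10 were higher, and of the eIF5, eIF5A, eIF5B and eIF6 group 2 of 4. In the eIF1 group, 1 of 5 was higher, while 0 of 3 kinases and 0 of 2 4E-BPs passed in either direction. At an unadjusted p under 0.05, 2 of the 3 kinases and 0 of the 2 4E-BPs did.

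Eif2s3x encodes the GTP-binding γ subunit of eIF2. It had log2 intensities of 10.58, 10.38 and 10.45 on the SCF arrays, against 9.79, 9.68 and 9.52 on the U arrays, a fold change of 0.81 (SE 0.16, adjusted p = 0.00143). Eif2b3, the γ subunit of the exchange factor eIF2B, had 8.92, 8.97 and 9.29 in SCF and 8.17, 8.33 and 8.38 in U, a fold change of 0.77 (SE 0.14, adjusted p = 0.000796). In both genes the lowest SCF array stood above the highest U array. Eif2b1, the α subunit, had 9.67, 9.63 and 10.10 in SCF and 9.29, 9.28 and 8.99 in U (0.62, adjusted p = 0.00506). The catalytic ε subunit, Eif2b5, had 10.62, 10.45 and 10.78 in SCF and 10.32, 10.16 and 10.15 in U (0.41, adjusted p = 0.0159). The δ subunit Eif2b4 stood apart from the other eIF2B genes, with a fold change of 0.04 (95% interval -0.20 to 0.28) and overlapping arrays.

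The largest fold change between SCF and U among the members was that of Eif4b, which stimulates the helicase eIF4A. Its brightest probe read 6.81, 6.42 and 6.84 in SCF and 4.71, 5.68 and 5.73 in U, a fold change of 1.32 (SE 0.26, adjusted p = 0.0012). The U group had 1 low array, replicate 1, and the call held without it. Next came Eif5a, the hypusine-modified factor that helps ribosomes past difficult peptide bonds, with 11.97, 11.93 and 12.80 in SCF and 11.08, 11.13 and 11.50 in U (1.00, SE 0.19, adjusted p = 0.000827). All 3 probes of Eif5a were higher in SCF, and no SCF array overlapped the U arrays on the brightest of them.

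Eif6, which keeps free large subunits from joining too early, had 11.50, 11.53 and 11.99 in SCF and 11.30, 11.14 and 11.11 in U (0.49, adjusted p = 0.0147). Eif1ad, which carries an eIF1A-like domain, had 10.62, 10.43 and 10.55 in SCF and 9.82, 9.94 and 10.14 in U (0.57, adjusted p = 0.0045), and its other 2 probes were higher as well. For eIF3, the chosen values are those of Eif3h, a peripheral subunit, at 6.79, 6.54 and 7.31 in SCF and 6.40, 6.18 and 6.05 in U (0.67, adjusted p = 0.0118), and of Eif3a, its largest subunit, at 9.18, 9.38 and 9.47 in SCF and 8.68, 8.95 and 9.13 in U. The SCF and U arrays of Eif3a did not overlap, yet its fold change of 0.42 missed the threshold (adjusted p = 0.0822).

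The eIF4A helicases and cap-binding proteins were mixed. Eif4a1, the main eIF4A helicase of growing cells, had 13.33, 13.31 and 13.47 in SCF and 12.92, 13.09 and 13.08 in U (0.34, adjusted p = 0.0454). This call was lost when any 1 of the 6 arrays was left out, but the second Eif4a1 probe differed by 0.84 (adjusted p = 0.0013 over probes). Its paralog Eif4a2 had 10.97, 11.33 and 11.25 in SCF and 10.91, 11.19 and 11.31 in U, with a fold change of 0.05 (95% interval -0.37 to 0.46). Eif4e, the cap-binding subunit, had 5.92, 5.97 and 5.44 in SCF and 5.54, 5.56 and 5.77 in U (0.15, interval -0.17 to 0.47), and these arrays overlapped. Eif4e2, a cap-binding homologue that does not bind eIF4G well and is known for repressing translation, had 9.64, 9.75 and 9.70 in SCF and 9.06, 9.11 and 9.36 in U (0.52, adjusted p = 0.00478). Its probes disagreed, with another called higher (0.58) and another lower (-0.49, adjusted p = 0.0298 over probes), and the mean of its probes did not pass (0.21, adjusted p = 0.191).

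The 3 tested kinases and 2 tested 4E-BPs, which inhibit the pathway, did not pass in either direction in the main fit. Eif2ak1, the haem-regulated kinase of erythroid cells, had 9.26, 8.84 and 9.08 in SCF and 9.54, 9.19 and 9.69 in U, a fold change of -0.42 (adjusted p = 0.056). Eif2ak2 (PKR, activated by double-stranded RNA) differed by 0.39 (adjusted p = 0.126) and Eif2ak3 (PERK, the kinase of the endoplasmic reticulum) by -0.26 (adjusted p = 0.186). Some alternatives gave calls. Eif2ak1 was called lower with array weights (-0.39, adjusted p = 0.0431) and with the replicate number as a block (-0.42, adjusted p = 0.0494). It was also called lower without SCF replicate 1 or without U replicate 2. Eif2ak2 was called higher with array weights (0.50, adjusted p = 0.025) and without U replicate 3 (0.54, adjusted p = 0.0471). Eif4ebp1 had 10.84, 10.98 and 11.39 in SCF and 11.05, 10.97 and 11.39 in U (-0.07, 95% interval -0.42 to 0.28), and Eif4ebp2 had 7.51, 7.17 and 7.01 in SCF and 7.93, 7.79 and 7.30 in U (-0.44, interval -1.11 to 0.23). The arrays of both 4E-BP genes overlapped between the groups.

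One array carried part of the count. Without SCF replicate 3, which was the highest SCF array for Eif5a, Eif6, Eif3h and Eif2b1, 11 members were called, all higher, and the calls of Eif2b2, Eif2b5, Eif2d, Eif3b, Eif3c, Eif3h, Eif4a1, Eif4a3 and Eif6 were lost. Leaving out any other single array gave 16 to 19. Without U replicate 2 the calls of Eif2b2, Eif2b5, Eif2s2, Eif3j1, Eif4a1 and Eif6 were lost, and without SCF replicate 1 or 2 or U replicate 1 or 3 at least 3 calls were lost each time, among Eif2b2, Eif2s2, Eif3b, Eif3c, Eif3j1, Eif4a1 and Eif4a3. With treat, which asks for more than a 1.2-fold change, 4 members passed.

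Several marker lists moved with this comparison. All 6 tested mitosis genes were higher in SCF than in U, with summed log2 levels of 12.63 to 12.83 in SCF, 11.74 to 12.01 in U, 13.13 to 13.16 in C and 13.60 to 13.71 in A. Of 5 granulocyte precursor genes, 4 were higher in SCF (15.24 to 15.37 in SCF, 14.79 to 14.90 in U). Lower in SCF were 6 of 7 megakaryocyte genes (13.86 to 14.03 in SCF, 15.35 to 15.46 in U), 6 of 8 monocyte and macrophage genes (11.89 to 12.88 in SCF, 13.14 to 13.72 in U), 5 of 8 erythroid genes (12.50 to 13.08 in SCF, 14.17 to 14.42 in U, where Ermap and Rhag were not above background) and all 3 eosinophil genes (10.62 to 10.74 in SCF, 13.42 to 13.74 in U). Their part in the result was not tested.

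**Figure D2:**
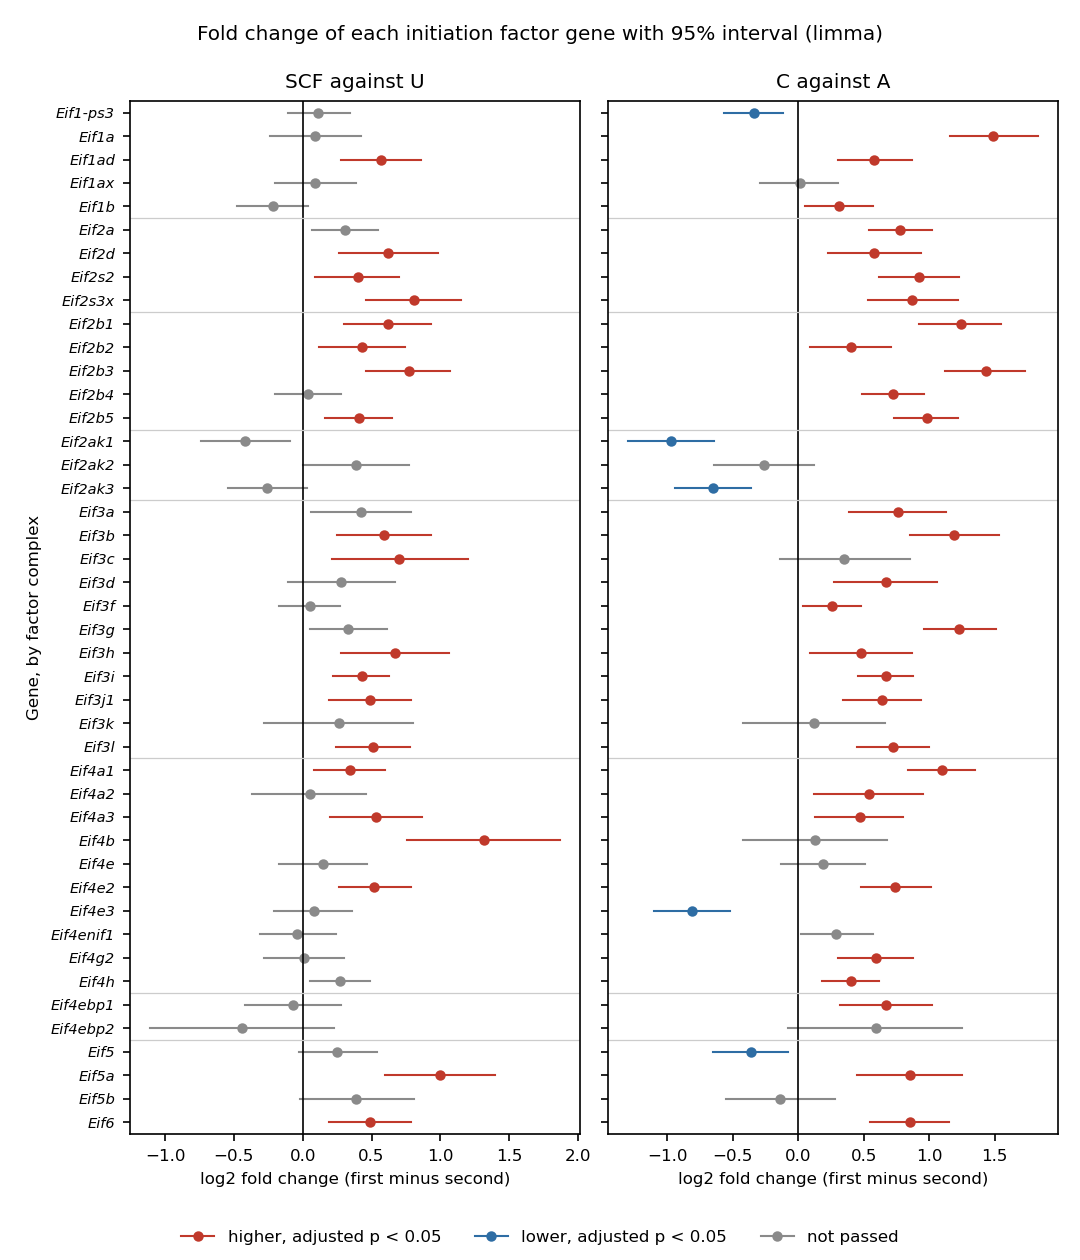
Points are log2 fold changes of the 44 tested genes in SCF against U (left) and C against A (right), with 95% intervals from limma, ordered by factor complex from top to bottom. Red marks genes called higher and blue genes called lower at an adjusted p under 0.05. There are 20 red and 0 blue points on the left, and 30 red and 5 blue on the right, where blue falls on Eif2ak1, Eif2ak3, Eif4e3, Eif5 and Eif1-ps3, the last 2 of which changed sign with median scaling.

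The second comparison was of CD117+ (C) with CD117− (A) cells. Here 35 of 44 members were called, where 51.0% of all tested genes were. Of them 30 were higher in C, where 29.6% of all tested genes were, and 5 were lower, where 21.3% were. The median member differed by 0.58 on the log2 scale, against 0.07 over all genes. Every C array lay above every A array for 31 members and below for 5, again without a count over all genes to read this against. With each array scaled to its median in place of quantiles, the median of all genes moved to 0.49 and the calls became 36 higher and 0 lower, so the signs of small differences here rest on the scaling. Relative to the median of all genes, the members' median stood 0.51 higher with quantiles and 0.80 higher with median scaling.

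Some complexes were called in full. All 4 eIF2 and tRNA delivery genes and all 5 eIF2B subunits were higher in C, as were 9 of 11 eIF3 subunits, the exceptions being Eif3c (0.35, adjusted p = 0.228) and Eif3k (0.12, adjusted p = 0.737). Of the eIF4F genes and helpers 6 of 10 were higher and 1 lower, and of the eIF1 group 3 of 5 were higher and 1 lower.

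The largest fold change of a member was that of Eif1a, of the eIF1A family that scans for the start codon with eIF1. It had 9.84, 9.90 and 10.15 on the C arrays and 8.45, 8.16 and 8.81 on the A arrays, a fold change of 1.49 (SE 0.16, adjusted p = 6.42e-07). Eif2b3 had 9.44, 9.26 and 9.47 in C and 8.15, 7.92 and 7.82 in A (1.43, SE 0.14, adjusted p = 3.78e-07). Eif2b1 had 10.22, 10.14 and 10.22 in C and 9.08, 9.04 and 8.74 in A (1.24, SE 0.15, adjusted p = 2.69e-06). In each of the 3 genes the C and A arrays were separated by more than the whole spread within either group. Eif2b5 had 10.55, 10.57 and 10.60 in C and 9.60, 9.50 and 9.70 in A (0.98), with all 3 of its probes called higher. Eif2s3x had 10.33, 10.38 and 10.38 in C and 9.30, 9.20 and 9.97 in A (0.87, adjusted p = 0.000272), A replicate 3 being the highest of that group.

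Among the scaffold and helicase genes, Eif3a had 9.02, 9.12 and 9.51 in C and 8.56, 8.13 and 8.67 in A (0.76, adjusted p = 0.00152). Eif3g, an RNA-binding subunit of eIF3, differed by 1.23 (adjusted p = 7.09e-07). Eif3h had 5.26, 5.03 and 5.00 in C, against 4.56, 4.60 and 4.68 in A, where it was not well above background on any array, and was at least 1.26-fold higher in C. That bound sets the mean of the C arrays against the dimmest signal above background on the A arrays, and the call of Eif3h (adjusted p = 0.0374) was lost without C replicate 1 or 2 or A replicate 1 or 2. It was also lost, with smaller fold changes, with quantiles and no background correction (0.14, adjusted p = 0.221), with the authors' processed values (0.11, adjusted p = 0.376) and with normalization within each array set (0.38, adjusted p = 0.102), and without the filter on dim probes (0.48, adjusted p = 0.113). Eif4a1 had 13.06, 13.10 and 13.17 in C and 12.24, 12.10 and 11.70 in A (1.10, SE 0.12, adjusted p = 1.12e-06). Eif4a2 had 11.78, 11.87 and 11.83 in C and 11.08, 10.88 and 11.90 in A, so that 1 A array, replicate 3, reached above all C arrays. Its call (0.54, adjusted p = 0.0303) was lost when any single array other than A replicate 3 was left out.

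Among the cap-binding proteins the direction was split. Eif4e2 had 10.80, 10.81 and 10.69 in C and 9.93, 9.91 and 10.22 in A (0.74, adjusted p = 9.97e-05). Eif4e3, another member of the eIF4E family, went the other way, with 8.51, 8.72 and 8.81 in C and 9.52, 9.49 and 9.46 in A (-0.81, SE 0.14, adjusted p = 0.000103), and its 3 probes were all called lower. Eif4e had 4.65, 4.52 and 4.45 in C and 4.31, 4.35 and 4.40 in A, not well above background on any array of either group, and did not pass (adjusted p = 0.33).

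Of the 3 eIF2 kinases, 2 were lower in C than in A. Eif2ak1 had 9.79, 9.68 and 9.53 in C and 10.51, 10.53 and 10.86 in A, a fold change of -0.97 (SE 0.16, adjusted p = 6.02e-05). Eif2ak3 had 5.20, 5.24 and 5.13 in C and 5.84, 5.83 and 5.84 in A (-0.65, adjusted p = 0.000781). Eif2ak2 had 9.12, 9.37 and 9.60 in C and 9.86, 9.44 and 9.59 in A (-0.26, adjusted p = 0.241), with overlapping arrays. With array weights it was called lower (-0.37, adjusted p = 0.0489). With median scaling it turned to 0.46 and a call of higher (adjusted p = 0.0385), though with the median of all genes taken off it was then at -0.03. Under that scaling Eif2ak1, Eif2ak3 and Eif4e3 kept the minus sign without passing, and Eif5 and Eif1-ps3 turned to 0.21 and 0.19 without passing. With that median taken off in the same way, Eif2ak1 was at -0.78, Eif2ak3 at -0.69, Eif4e3 at -0.57, Eif5 at -0.28 and Eif1-ps3 at -0.30. The erythroid markers summed to 15.01 to 15.34 in C and 16.22 to 16.31 in A, with 4 of 8 lower and 1 higher in C, and mature neutrophil and B cell markers were also lower in C. Their part in the kinase values was not tested.

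Eif4ebp1, the best known inhibitor of eIF4E, had 10.59, 10.62 and 10.76 in C and 10.13, 10.18 and 9.65 in A (0.67, adjusted p = 0.00279). Eif4ebp2 had 8.98, 8.70 and 9.02 in C and 7.64, 7.94 and 9.35 in A, and its fold change of 0.59 did not pass (adjusted p = 0.135). The A group of this gene spread over more than the difference itself, and without A replicate 3 the fold change was 1.11 (adjusted p = 0.000298). Eif5a had 12.08, 11.89 and 11.72 in C and 11.15, 11.05 and 10.94 in A (0.85). Its other probes read 0.45 (adjusted p = 0.0369 over probes) and 0.34, which did not pass (adjusted p = 0.116). Eif6 had 11.30, 11.14 and 11.03 in C and 10.40, 10.41 and 10.11 in A (0.85). Eif5, which triggers GTP hydrolysis by eIF2, was lower in C (-0.36, adjusted p = 0.0325) with quantiles but not with median scaling, a call that was lost without C replicate 1 or 2 or A replicate 1 or 2. Its other 2 probes read -1.17 and -0.95 and were called lower too.

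**Figure D3:**
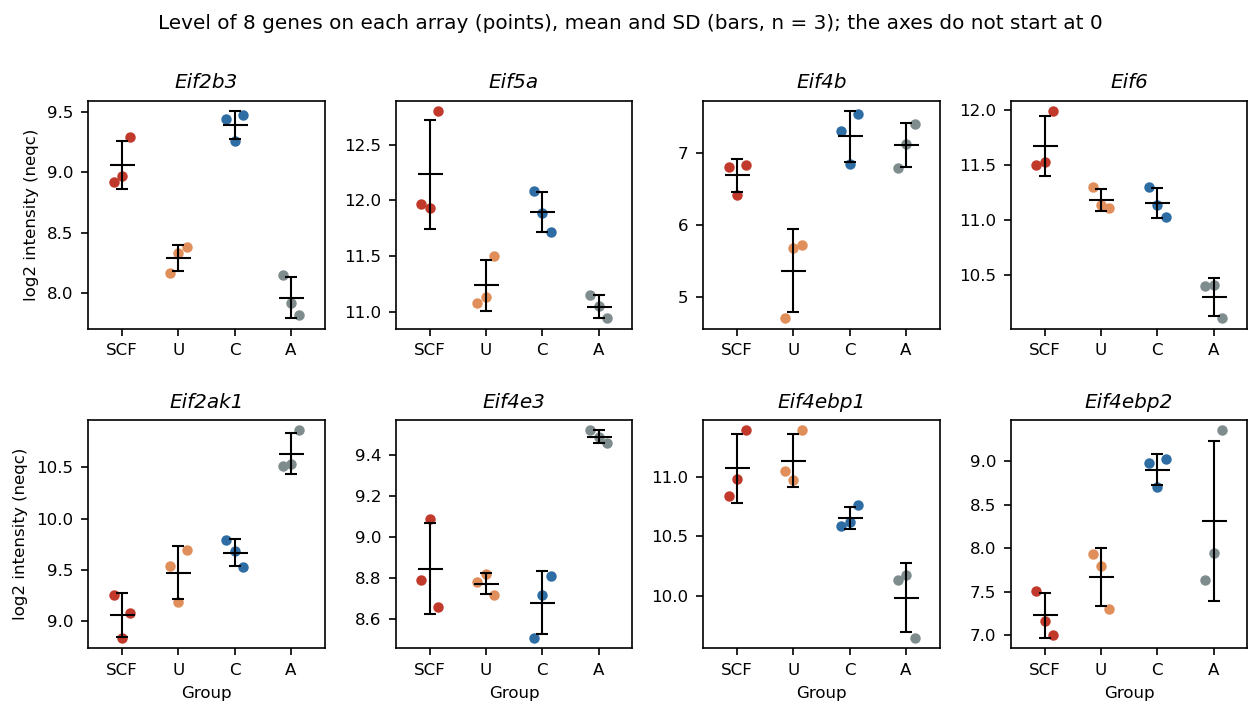
Log2 intensity (vertical axis, not starting at 0) of the brightest probe of 8 genes on each array. Points stand for the groups SCF, U, C and A from left to right, with the mean and SD of 3 arrays. Eif2b3 and Eif5a are high in SCF and C, Eif2ak1 and Eif4e3 are highest in A, and Eif4ebp2 has 1 A array (9.35) far from the other A arrays.

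The comparisons SCF against U and C against A share no arrays, though they share 1 fit. Of the 20 members higher in SCF than in U, 18 were also higher in C than in A: Eif1ad, Eif2b1, Eif2b2, Eif2b3, Eif2b5, Eif2d, Eif2s2, Eif2s3x, Eif3b, Eif3h, Eif3i, Eif3j1, Eif3l, Eif4a1, Eif4a3, Eif4e2, Eif5a and Eif6. These are 90.0% of the 20 and 60.0% of the 30 higher in C, and the other 2 of the 20, Eif3c and Eif4b, did not pass there. For reading these shares, 68.2% of the 44 members were higher in C, and of the 1616 tested genes of any kind that were higher in SCF than in U, 904 (55.9%) were also higher in C than in A. Conversely, 12 members were higher in C than in A without passing in SCF against U, among them Eif1a, Eif2b4, Eif3g and Eif4ebp1. A difference between the comparisons was not tested for these genes.

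A short DNA motif, the E-box CACGTG bound by Myc and related factors, is known from promoters of ribosome and translation genes. It was counted in the 250 bases before the transcription start site of RefSeq genes (GRCm38.p6), and since the motif reads the same on both strands each match covers both. Of the 38 members matched to a promoter, 8 held it (21.1%), against 1854 of 27025 genes (6.86%). The 27025 include genes that were not tested here. No share was counted over the tested genes alone, so these shares compare unlike sets of genes for the motif. The following windows show it in capitals, 5′ to 3′ on the strand of the gene, for 4 of the 5 members with the motif that were higher in C than in A, shown because they place it near to and far from the start site.
Eif1b: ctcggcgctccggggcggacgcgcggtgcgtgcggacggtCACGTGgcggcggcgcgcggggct
Eif3f: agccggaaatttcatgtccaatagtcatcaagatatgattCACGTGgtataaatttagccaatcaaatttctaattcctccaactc
Eif4a1: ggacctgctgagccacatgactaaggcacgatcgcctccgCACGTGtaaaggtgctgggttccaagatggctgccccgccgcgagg
Eif4h: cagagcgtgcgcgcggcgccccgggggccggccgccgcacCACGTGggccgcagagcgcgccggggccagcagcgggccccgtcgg
The windows lie at chr9:120492542-120492605 (plus strand) for Eif1b, chr7:108934307-108934392 (plus strand) for Eif3f, chr11:69672567-69672652 (minus strand) for Eif4a1 and chr5:134639460-134639545 (minus strand) for Eif4h. The motif starts 24, 68, 189 and 96 bases before the start site in that order. These 4 genes differed between C and A by 0.31, 0.26, 1.10 and 0.40 on the log2 scale in the same order. The calls of Eif1b and Eif3f were weak, that of Eif1b being lost without C replicate 1 or 3 or A replicate 1 or 2, and that of Eif3f without any C array, A replicate 1 or A replicate 3. Of the 7 tested members that hold it, 2 were higher in SCF than in U, against 14 of 28 members without it. In C against A the counts were 5 of 7 higher with the motif, against 18 higher and 3 lower of 28 without it. A match shows letters in a window and no binding.

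The third comparison set U against C, both labelled CD117+ but in different array sets. Of the members 29 were called, where 57.1% of all tested genes were. They split into 24 that were lower in U, where 28.5% of all tested genes were, and 5 were higher, where again 28.5% were. The median member differed by -0.46, against -0.01 over all genes. With median scaling the calls were 5 higher and 13 lower. All 5 eIF2B subunits were lower in U, as were 7 of 10 eIF4F genes and helpers, 3 of 4 eIF2 and delivery genes, 4 of 11 eIF3 subunits and 3 of 4 genes of the eIF5 to eIF6 group. With median scaling these counts were 4 of 5, 5 of 10, 0 of 4, 2 of 11 and 1 of 4. All 10 neutrophil, all 8 monocyte and macrophage and 6 of 7 megakaryocyte markers were higher in U and all 6 mitosis genes were lower, and their part in these values was not tested.

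The 3 largest decreases on the brightest probes were those of Eif4b, Eif4e2 and Eif4ebp2, ahead of Eif2b3 (-1.10) and Eif2b1 (-1.01). Eif4b had 4.71, 5.68 and 5.73 in U and 7.30, 6.85 and 7.54 in C, a fold change of -1.86 (SE 0.26, adjusted p = 1.22e-05). Eif4e2 had 9.06, 9.11 and 9.36 in U and 10.80, 10.81 and 10.69 in C (-1.59, SE 0.13, adjusted p = 1.48e-08). Its other probes read -0.88 and 0.10. Eif4ebp2 had 7.93, 7.79 and 7.30 in U and 8.98, 8.70 and 9.02 in C (-1.23, SE 0.32, adjusted p = 0.00315). All 3 were separated array by array. Eif4enif1, the eIF4E transporter that carries eIF4E to the nucleus and to P-bodies, had 9.00, 8.90 and 8.77 in U and 9.58, 9.64 and 9.69 in C (-0.74, adjusted p = 0.000108).

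The genes higher in U were Eif3h, Eif4e, Eif1ad, Eif4ebp1 and Eif2ak3. Eif3h had 6.40, 6.18 and 6.05 in U and 5.26, 5.03 and 5.00 in C (1.11, SE 0.18, adjusted p = 6.57e-05). Eif4e had 5.54, 5.56 and 5.77 in U and 4.65, 4.52 and 4.45 in C, where it was not well above background on any array, and was at least 1.97-fold higher in U (adjusted p = 1.06e-05). Both genes stood clear of the C arrays in SCF as well. Eif1ad had 9.82, 9.94 and 10.14 in U and 9.57, 9.36 and 9.53 in C (0.48, adjusted p = 0.00599) on its brightest probe. Eif4ebp1 had 11.05, 10.97 and 11.39 in U and 10.59, 10.62 and 10.76 in C (0.48, adjusted p = 0.0198), a call lost without U replicate 3 or C replicate 1 or 2, while its relative Eif4ebp2 was lower. The call of Eif2ak3 (0.35, adjusted p = 0.0376) was lost when any 1 of the 6 arrays was left out, and that of Eif2ak2 (-0.46, adjusted p = 0.0365) without U replicate 1 or 2 or C replicate 2 or 3. Eif1a (0.05, 95% interval -0.29 to 0.38) and Eif6 (0.03, interval -0.27 to 0.32) differed little between U and C.

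The fourth comparison, SCF against C, shares its arrays with the first and the third. Here 14 members were called, where 46.5% of all tested genes were, with 4 higher in SCF, where 24.6% of all tested genes were, and 10 lower, where 21.9% were, and the median was -0.05. With median scaling the split became 11 higher and 4 lower, with the median of all genes at 0.18, so no direction is given for the family as a whole. Of the eIF2 and delivery genes, 0 of 4 passed in limma's test, and 0 of 4 did so at an unadjusted p under 0.05. Higher in SCF were Eif3h (1.78, adjusted p = 5.29e-07), Eif4e (at least 2.18-fold, adjusted p = 3.71e-06), Eif1ad (1.05, adjusted p = 6.77e-06) and Eif6 (0.52, adjusted p = 0.00594). The direction of Eif1ad depends on the probe here too. Another of its probes was called higher (0.67) and another lower (-0.72, adjusted p = 0.000424 over probes). Lower by most were Eif4ebp2 (-1.67, SE 0.32, adjusted p = 0.000348), Eif4e2 (-1.07, SE 0.13, adjusted p = 2.35e-06) and Eif4enif1 (-0.78, SE 0.13, adjusted p = 9.69e-05). Eif4enif1 had 8.70, 8.99 and 8.88 in SCF and 9.58, 9.64 and 9.69 in C, with no overlap. Markers moved with this comparison too. Higher in SCF were 9 of 10 neutrophil, 6 of 8 monocyte and macrophage and 5 of 7 megakaryocyte genes, and lower were all 8 erythroid, all 3 eosinophil, all 4 B cell and 3 of 6 mitosis genes. The erythroid genes summed to log2 levels of 12.50 to 13.08 in SCF and 15.01 to 15.34 in C. The part of these markers in the members' values was not tested.

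Set side by side, the group means of Eif2b3 were 9.06 in SCF, 8.29 in U, 9.39 in C and 7.96 in A. For Eif5a they were 12.24 in SCF, 11.24 in U, 11.90 in C and 11.05 in A, and for Eif4b 6.69 in SCF, 5.37 in U, 7.23 in C and 7.10 in A. These are means of the brightest probes. On the other Eif5a probes the A means, 11.60 and 11.59, lay above the U means, 10.78 and 11.00. In these genes the SCF mean lay between the U and C means or above both. Of the 20 members higher in SCF than in U, 13 were lower in U than in C. Among all 44 tested members, 24 (54.5%) were lower in U than in C. The overlap of these calls was not counted over all genes, so it has no share to be read against. Since both comparisons use the U arrays, their calls are not independent of each other.

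**Figure D4:**
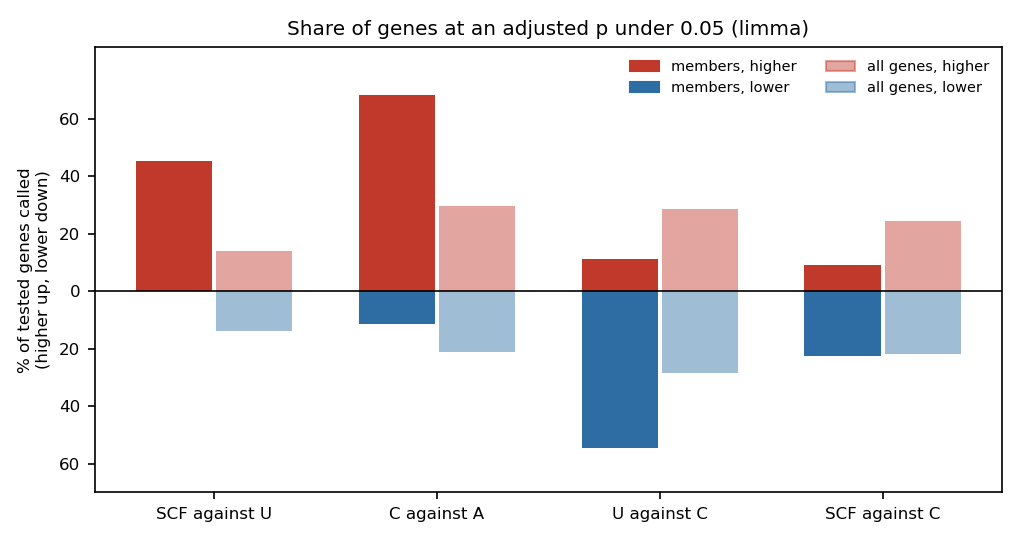
Bars give the percentage of the 44 members (dark) and of all 11472 tested genes (pale) called higher (up) or lower (down) in each of the 4 comparisons. Members exceed all genes in the higher direction in SCF against U and C against A, and in the lower direction in U against C. With median scaling the members' calls were 36 higher and 0 lower in C against A, 5 higher and 13 lower in U against C, and 11 higher and 4 lower in SCF against C.

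Probes of the same gene did not always move together. Of the 50 genes, 20 had at least 2 probes above background. Opposite calls among probes of a gene were found in 1 of the 20 in SCF against U (Eif4e2, where 5 of 4302 genes in all had them), in 0 in C against A (25 of 4302), and in 3 in U against C (Eif1ad, Eif4a2 and Eif4g2, where 276 of 4302 had them). The same 3 were found in SCF against C, where 231 of 4302 genes had opposite calls.

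Eif4g2 encodes DAP5, an eIF4G-like scaffold without an eIF4E site. In U against C its brightest probe differed by -0.50, another by -1.47 and the dimmest by 2.31 (adjusted p = 8.75e-08 over probes). On that dimmest probe the values were 7.18, 7.40 and 7.58 in U and 4.84, 4.89 and 5.51 in C. For Eif1ad the brightest probe differed by 0.48 and another by -1.83 (adjusted p = 1.16e-08), so the direction of Eif1ad between U and C depends on the probe, and the mean of its probes gave -0.42 (adjusted p = 0.00745). The second Eif4b probe was higher in SCF than in U as well (0.75, adjusted p = 0.0118). Between U and C it read 0.40 (adjusted p = 0.107), unlike the -1.86 of the first.

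Between the array sets some dimmer probes went against the brightest. Probes of Eif3c (1.61), Eif3a (1.12), Eif4g2 (2.31) and Eif4a2 (0.55) other than the brightest were higher in U than in C, as were the only probes read for Eif3h and Eif4e. Within the array sets the tested probes of Eif3a, Eif3c, Eif5a, Eif2b1, Eif2b5, Eif3i and Eif3l each kept 1 sign in SCF against U and in C against A. So did those of Eif1ad, Eif2d, Eif2s2, Eif3f, Eif4a1 and Eif4b. Those of the other genes with several tested probes did not. Besides Eif4e2, probes in SCF against U read 0.08, 0.33 and -0.28 for Eif4e3, 0.25, 0.49 and -0.14 for Eif5, and -0.04 and 0.46 for Eif4enif1. For C against A, probes of Eif4g2 read 0.59, 0.49 and -0.74, those of Eif4a2 from 0.64 to -0.41, and those of Eif3b 1.19 and -0.07. Between SCF and C, the Eif5a probes read 0.34, -0.33 and -0.32, and those of Eif3i 0.12, -0.14 and 0.25.

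**Figure D5:**
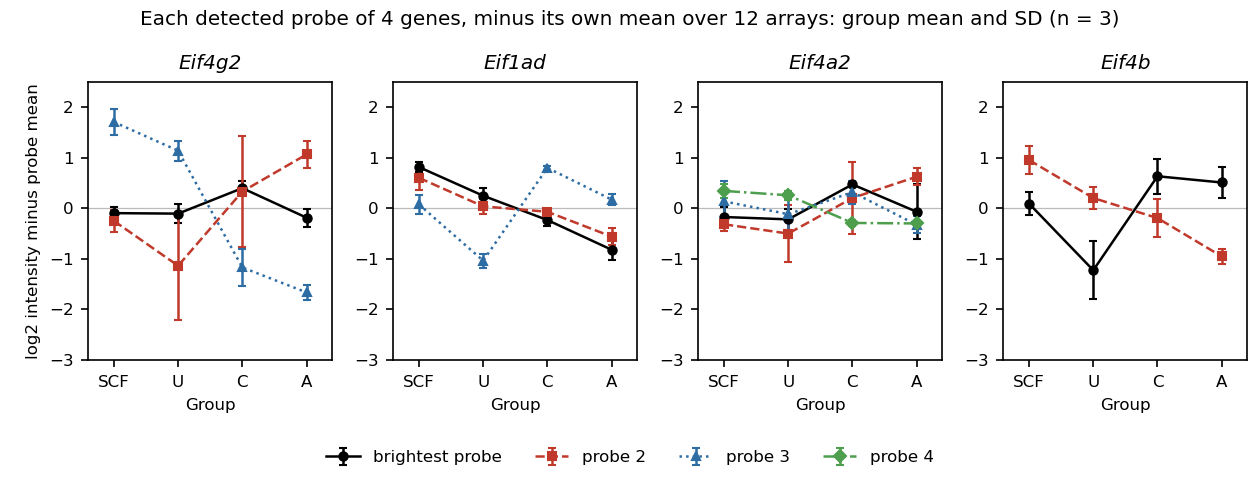
Each line is 1 probe above background of Eif4g2, Eif1ad, Eif4a2 or Eif4b, given as log2 intensity minus that probe's mean over 12 arrays, with the mean and SD of 3 arrays in SCF, U, C and A. Probes are numbered by brightness. Eif4g2 probe 3 and Eif4b probe 2 are high in SCF and U and low in C and A, while the brightest probes of both genes are highest in C.

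Of the 50 genes, 6 were not tested. Eif2ak4 (GCN2, the amino acid sensor), Eif3e, Eif4e1b, Eif4ebp3, Eif5a2 and the Y-linked Eif2s3y were not above background on at least 3 arrays, Eif2s3y on none. Eif1-ps3 is annotated as a pseudogene of Eif1, so which transcript its probe reads is uncertain. A further probe of Eif6, listed under the older symbol Itgb4bp and so outside the rule, was above background on all 12 arrays.

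A list drawn mainly from the later steps of translation was counted in the same way. It also holds mitochondrial factors (Tufm, Tsfm, Gfm1, Gfm2 and the initiation factors Mtif2 and Mtif3) and the diphthamide genes Dph1, Dph2 and Dph5. Etf1 and Abce1 stand both in it and in the list of regulators below. Of the 21 genes on this list, 10 were higher and 0 lower in SCF than in U, and 17 higher and 0 lower in C than in A. The counts were 2 higher and 16 lower in U than in C, and 2 higher and 8 lower in SCF than in C. Of all tested genes, 14.1% were higher and 13.7% lower in SCF against U, and 29.6% and 21.3% in C against A. In U against C 28.5% were higher and 28.5% lower, and in SCF against C 24.6% and 21.9%. At an unadjusted p under 0.05 the counts lower were still 0 of 21 in SCF against U and 0 of 21 in C against A. Gfm1, the mitochondrial elongation factor G, had 7.19, 7.42 and 7.22 in SCF and 6.09, 6.62 and 6.39 in U (0.91, adjusted p = 0.000761), and Eef1d, an exchange factor subunit for eEF1A, differed by 0.75. In C against A the largest were Eef1e1, of the tRNA synthetase complex (1.65), and Tufm, the mitochondrial EF-Tu (1.38). The translocase Eef2 fell by 1.79 in U against C, and in SCF against C the kinase that inhibits it, Eef2k, fell by 1.03. Abce1, the ribosome recycling factor, was among the 2 higher in U than in C (0.89) and in SCF than in C (1.04).

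Regulators of initiation outside the Eif symbols were called in both directions. Of 30 tested, 4 were higher and 2 lower in SCF than in U, and 16 higher and 5 lower in C than in A. The counts were 11 higher and 8 lower in U than in C, and 7 higher and 7 lower in SCF than in C. In SCF against U and in SCF against C they lay near or below the shares of all tested genes given above, and are not read as a result about this list. Ppp1r15a (GADD34), which brings a phosphatase to eIF2α under stress, had 7.75, 7.70 and 8.07 in SCF and 8.96, 8.86 and 9.14 in U (-1.15, adjusted p = 2.98e-05). It had 8.60, 8.35 and 8.24 in C and 10.78, 10.85 and 11.04 in A (-2.49, adjusted p = 5.07e-10), and its constitutive relative Ppp1r15b fell by 1.00 in C. Its values thus lay in the same order between C and A as those of Eif2ak1.

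Mknk1, a kinase of eIF4E, was lower in SCF than in U (-0.94, adjusted p = 0.000504). Larp1, which binds mRNAs of the translation machinery, was higher in SCF than in U (0.74) and in C than in A (1.38), as was Mcts1, a partner in reinitiation (0.71 and 0.48). Dnajc3, an inhibitor of the kinases PKR and PERK, was higher in C than in A (1.46). Between U and C the largest were Impact, an inhibitor of GCN2 (1.43), and the helicase Ddx3x (1.42), with Pabpc4 (-1.67) and the release factor Etf1 (-0.88) in the other direction. In SCF against C, Paip2 (1.32) and Pabpc1 (1.31) led, opposite to Pabpc4 (-1.08) and Ppp1r15a (-0.56).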

How the data were processed

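Total RNA of bone marrow cells was hybridized as biotinylated cRNA. The authors deposited scanner intensity values on a linear scale, neither background-corrected nor normalized, and beside each a detection p-value. They also deposited processed intensity values that follow 1 distribution within C and A and another within SCF and U. For the scanner software and the array test, details were not given in the sources used here. Sequencing and counts appear in the methods, whereas the files hold array intensities. No label ties equal replicate numbers to 1 mouse.

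Background was removed by normexp, with negative controls inferred from detection p-values, and the 12 arrays were quantile normalized together (neqc, offset 16) and put on the log2 scale in limma 3.58.1 (R 4.3.3). Figures used matplotlib 3.10.9 (Python 3.11.15). Symbols were updated through RefSeq tables. Of 45281 probes, 35784 had 1 symbol, 0 several and 9497 none. A probe counted as detected when its p was under 0.05 on 3 or more of the 12 arrays. The brightest detected probe stood for each of 11472 genes, and other probes were tested in a separate fit of 17712 detected probes. Group means of all 4 groups were fitted with lmFit and eBayes (trend, 8 residual degrees of freedom), and p-values were adjusted by Benjamini-Hochberg over all genes. The fits were tested on simulated data. Bounds ("at least") use the dimmest signal above background on each array (log2 4.63 to 4.82). The 3 arrays per group limit the precision.

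Array values are given for the 3 called members with the largest increase and decrease in each comparison and for a list of 16 genes, of which 12 were tested. Of other pathway genes, the 2 with the largest call in each direction are named, and further named genes were chosen after their values were seen. Members, lists and alternatives were chosen with earlier results of these data known. The alternatives were other scalings and filters, the authors' processed values, the mean of probes, other fits, the replicate number as a block, and leaving out each array.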

Additional observations from a re-analysis of the deposited data

How the results depend on the processing

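With 3 arrays per group, small differences were not detectable, and signals near the background have compressed fold changes. Of 88 results for a named gene in a comparison, 54 were called with all arrays, 20 of these lost the call under at least 1 alternative and 1 changed sign. The count of members called moved by over 1.5 times under these settings. With treat at a 1.2-fold change it was 4 in SCF against U, 17 in U against C and 7 in SCF against C. With median scaling it was 18 in U against C. In SCF against C it was 23 when only the 6 arrays compared were fitted and 25 with array weights. Leaving out 1 array gave 11 to 19 in SCF against U, 27 to 33 in C against A, 24 to 27 in U against C and 11 to 16 in SCF against C, against 20, 35, 29 and 14 with all arrays. Unadjusted, 26 members passed in SCF against U, an alternative added after seeing the data. Equal replicate numbers did not pair the arrays (correlations of -0.186 to 0.209 between deviations). With the number as a replicate block the calls were 18 higher and 1 lower in SCF against U, 28 and 5 in C against A, 5 and 24 in U against C, and 5 and 9 in SCF against C. Normalization within each array set and the authors' processed values were run for SCF against U (19 members each) and C against A (34 each) and not for the other comparisons, whose groups lie in different sets. Signs turned as follows, and the cause was not tested. With the mean of probes, Eif1ad was -0.42 and Eif3a 0.41 in U against C, Eif4b 0.30 and Eif5a -0.10 in SCF against C, and Eif4enif1 0.21 in SCF against U. With median scaling, Eif2ak2 was 0.46 in C against A and 0.18 in SCF against C, and Eif4enif1 0.07 in SCF against U. With array weights, Eif2b5 was -0.01 and Eif2ak2 0.03 in SCF against C. With 1 array left out, values ranged from -0.01 to 0.14 for Eif1a and from -0.03 to 0.10 for Eif6 in U against C. In SCF against C they ranged from -0.04 to 0.12 for Eif2b5 and from -0.20 to 0.04 for Eif2ak2, and in C against A from -0.03 to 0.32 for Eif4b. In SCF against U they ranged from -0.07 to 0.15 for Eif4a2, from -0.05 to 0.17 for Eif4e3, from -0.10 to 0.04 for Eif4enif1 and from -0.23 to 0.06 for Eif4ebp1. Of these sign changes, Eif1ad in U against C was a call in both directions. Eif2ak2 in C against A was not called in the main setting. It was called higher with median scaling and lower with array weights (-0.37, adjusted p = 0.0489). The others were called under neither setting.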
